A study of Mus musculus with 18 samples.

Results

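Transgenic cerebellum was compared between week 28 and week 5 in 6 of the 18 libraries of the series, 3 from ATXN1[30Q]D776/Cck-/- mice at each of these ages. The genes tested were the 13487 of 22783 with at least 1 FPKM (fragments per kilobase of transcript, scaled to the mapped fragments of the library) in at least 3 of the 18 libraries. The study profiled cerebellar RNA from FVB mice of 2 genotypes at 5, 12 and 28 weeks of age, with 3 libraries in each group. ATXN1[30Q]D776/Cck-/- mice carry a human ATXN1 transgene whose product has 30 glutamines and an aspartate in place of a serine, and Cck-/- mice lack the transgene. Both genotypes carry the deletion of Cck, so no group has an intact Cck gene. The 3 transgenic libraries of week 12 were shown to place a change before or after that age. All 18 libraries, those of Cck-/- week 12 included, entered the filter and the shared spread behind every p-value. The Cck-/- libraries of week 28 and week 5, 3 of each, gave the change over the same ages without the transgene. The labels give neither the sex of the mice nor the promoter of the transgene. Nor do they tie each library to an animal of its own, so the p-values measure the spread between these libraries, which may be technical.

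Ataxin-1 is a nuclear protein that acts with the transcriptional repressor Capicua, and its form with an expanded glutamine tract causes the inherited ataxia SCA1, in which Purkinje cells shrink, fire abnormally and are lost. Purkinje cells are the output neurons of the cerebellar cortex, and their dendrites answer glutamate through inositol trisphosphate and calcium released from internal stores. Transgenic mice of this kind are known to make ATXN1 from the Purkinje cell regulatory region of Pcp2, whereas granule neurons, Bergmann glia, oligodendrocytes and microglia share the tissue without it. Cholecystokinin, the product of Cck, is a neuropeptide that acts on the receptors encoded by Cckar and Cckbr.

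Summed FPKM was 389248 to 441509 in the 9 transgenic libraries, and 12775 to 13323 genes reached 1 FPKM, but the number of reads behind a value is unknown. In week 28 replicate 2 the small RNA AF357426 alone held 49462 FPKM. Genes of choroid plexus, a tissue attached to the cerebellum, were low (a mean log2 level under 2) in week 28 replicate 3 and week 5 replicates 1 and 2, and their summed FPKM spanned 147.5 to 2480 at week 28 and 116 to 3480 at week 5. Transcripts of both Xist (at least 1 FPKM) and the Y-linked gene Ddx3y (at least 0.5 FPKM) were present in week 28 replicate 1, week 12 replicate 2 and week 5 replicate 1. Counts are therefore also given without these libraries where that moves them by over 1.5 times. Markers of the cerebellar cortex were present, with Pcp2 of Purkinje cells at 293, 232 and 490.2 FPKM at week 28 and 731, 605 and 685 FPKM at week 5, and Gabra6 of granule neurons at 265, 282 and 286 FPKM at week 28 and 459.6, 353 and 410.0 FPKM at week 5.

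Libraries of week 28 from both genotypes stood apart from the 12 younger ones. In 976 genes all 6 libraries of week 28 lay outside the range of the other 12, with 364 genes higher and 612 lower. The same count was 217 higher and 138 lower for week 5, and 7 higher and 2 lower for week 12. Srsf4, which encodes a splicing factor, was at 7.33 to 8.93 FPKM in the 6 libraries of week 28 and at 28.3 to 31.8 FPKM in the 12 younger ones, while Gm12992, an RNA assigned to the same locus, was at 9.80 to 12.2 FPKM in the 6 libraries of week 28 and at 0.976 to 2.21 FPKM in the younger ones. Dynlt1a, a dynein light chain gene with near-identical copies, was at 11.7 to 14.8 FPKM at week 28 and 1.70 to 2.69 FPKM before. A shift of at least 1.5 log2 of this kind was met by 13 genes, of which 7 have predicted or pseudogene names. Of these, Nox1, Adamts13, Gm20319, Gm12338 and Rpl14-ps1 stayed under 1 FPKM in all 12 younger libraries. They passed the filter on low values through week 28 alone, so their separation is in part set by that filter. No label records a batch, so age and any other difference of the libraries of week 28 cannot be told apart.

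The fold of the 28-week change was small for most genes and the number of genes was large. With limma on log2(FPKM + 1) and an adjusted p under 0.05, 4979 genes differed between transgenic week 28 and week 5 (36.9% of those tested), of which 2299 were higher (17%) and 2680 lower (19.9%). Every list count of this comparison below is to be read beside these shares of 17% and 19.9%. Their median change in size was 0.30 log2, and 4036 of them (81.1%) changed by under 0.5 log2. A change of at least 1 log2 was found in 88 genes that rose and 50 that fell. The 3 libraries of week 28 did not overlap those of week 5 in 6721 genes (49.8%), 4787 of them called. Within the transgenic libraries the correlation of log2 levels was 0.9891 to 0.9917 among the week 28 libraries and 0.9905 to 0.9934 among those of week 5, against 0.9712 to 0.9864 between the ages. Leaving out the 3 libraries low in choroid plexus genes left 2587 calls, and leaving out the libraries with both Xist and Ddx3y left 2691.

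**Figure D1:**
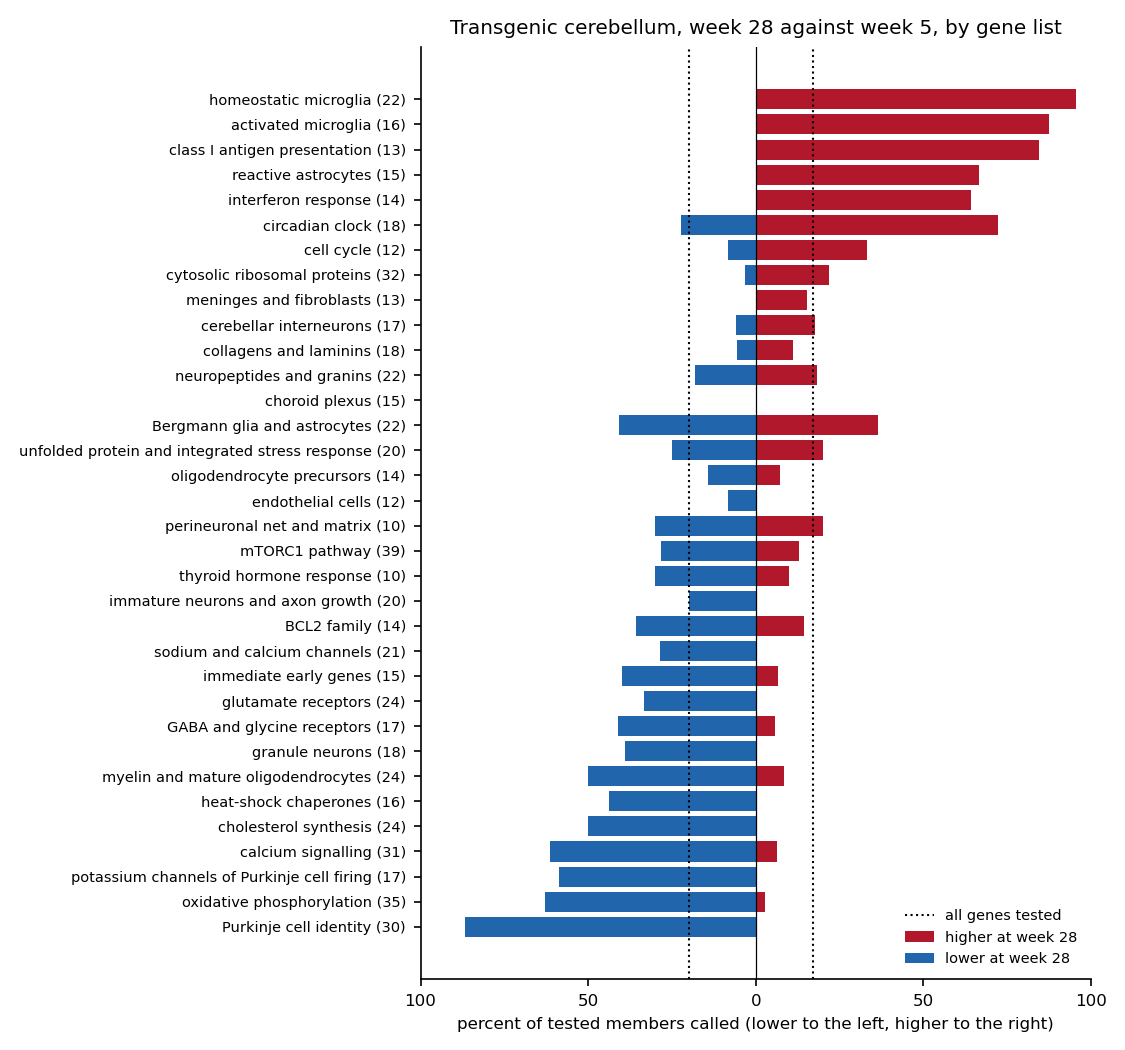
Share of the tested members of each gene list (number tested in parentheses) that was called higher, to the right, or lower, to the left, at week 28 against week 5 in transgenic cerebellum. Dotted lines mark the shares over all 13487 genes, 17% higher and 19.9% lower. Microglial and class I lists extend farthest to the right and the Purkinje cell list, with 26 of 30 members lower, to the left.

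Cck itself had the largest fall among the called genes, although every library carries the deletion. The labels do not say which part of the gene the deletion removes, so its reads check neither the genotype nor the peptide. Cck was at 8.35, 6.34 and 4.85 FPKM in transgenic week 28 libraries, against 81.0, 112 and 102 FPKM at week 5, and at 17.1, 14.4 and 12.8 FPKM at week 12. The ages did not overlap, and the log2 change was -3.74 ± 0.23 (SE, limma adjusted p = 4.92e-08), of which -2.65 lay between weeks 5 and 12. In Cck-/- libraries it was at 7.34, 3.85 and 3.71 FPKM at week 28 and 25.8, 17.1 and 19.5 FPKM at week 5. The transgenic fall exceeded that of Cck-/- by -1.83 ± 0.32 (SE, limma adjusted p = 0.0105). At week 5 the 3 transgenic libraries were thus the highest of all 18. The mouse gene Atxn1 was at 5.50, 6.42 and 5.96 FPKM at week 28 and 6.32, 6.50 and 5.33 FPKM at week 5, which overlap (limma adjusted p = 0.937). Human ATXN1 sequence was not analysed here.

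Other genes had their highest values in transgenic libraries of week 5. Tuba1c, an alpha-tubulin gene close in sequence to its relatives, was at 2.44, 1.74 and 0.643 FPKM at week 28, against 19.8, 20.3 and 22.6 FPKM at week 5. It had reached 3.04, 1.56 and 1.79 FPKM by week 12, and the Cck-/- libraries held 1.80, 1.41 and 2.49 FPKM at week 28 and 2.38, 1.99 and 2.45 FPKM at week 5. The groups did not overlap and the log2 change -3.13 ± 0.22 SE, limma adjusted p = 3.42e-07 was almost all present at week 12 (-2.83). Scg5, which encodes the chaperone 7B2 of the prohormone convertase PC2, was at 142, 159 and 177 FPKM at week 28, against 266, 243 and 257 FPKM at week 5 (log2 change -0.69 ± 0.081 SE, limma adjusted p = 3.93e-05). Clmp, a cell adhesion gene, followed the same course at 14.2, 11.4 and 17.9 FPKM at week 28 and 26.5, 24.7 and 26.9 FPKM at week 5 (log2 change -0.83 ± 0.14 SE, limma adjusted p = 0.000435). The transcript AA465934 was at 2.43, 2.21 and 2.97 FPKM at week 28 and 67.3, 69.6 and 3.00 FPKM at week 5, so its call rests on replicates 1 and 2 of week 5. Its change was -0.27 and did not pass without the libraries low in choroid plexus genes, and it was -2.23 and did not pass without those with both Xist and Ddx3y.

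Genes with the largest gains in transgenic cerebellum included glial and immune genes. Etnppl, an astrocytic enzyme that breaks down phosphoethanolamine, was at 48.4, 68.1 and 38.0 FPKM at week 28, against 4.62, 6.73 and 5.21 FPKM at week 5 (log2 change 2.98 ± 0.23 SE, limma adjusted p = 6.58e-07). Il33, which encodes an alarmin cytokine made by glia, was at 35.3, 37.2 and 28.3 FPKM at week 28, against 7.04, 7.82 and 7.61 FPKM at week 5 (log2 change 2.02 ± 0.14 SE, limma adjusted p = 3.24e-07). C4b, complement component 4, was at 13.4, 20.3 and 12.1 FPKM at week 28, against 2.35, 2.58 and 2.95 FPKM at week 5 (log2 change 2.13 ± 0.23 SE, limma adjusted p = 2.50e-05). Every week 28 library lay above every week 5 library for these genes. Neat1, the nuclear RNA that builds paraspeckles, was at 88.0, 88.9 and 68.3 FPKM at week 28, against 22.4, 26.5 and 19.7 FPKM at week 5 (log2 change 1.79 ± 0.11 SE, limma adjusted p = 4.28e-08). Over the same ages the Cck-/- libraries changed by 1.93 for Etnppl, 2.23 for Il33, 1.45 for C4b and 1.90 for Neat1, and none of the differences between genotypes passed the test. Their adjusted p-values by limma were 0.0840, 0.601, 0.268 and 0.753 in that order, which does not show that the genotypes changed alike. That of Etnppl, 1.06, passed without transgenic replicate 3 or Cck-/- replicate 1 of week 28, at 1.251 and 1.29.

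**Figure D2:**
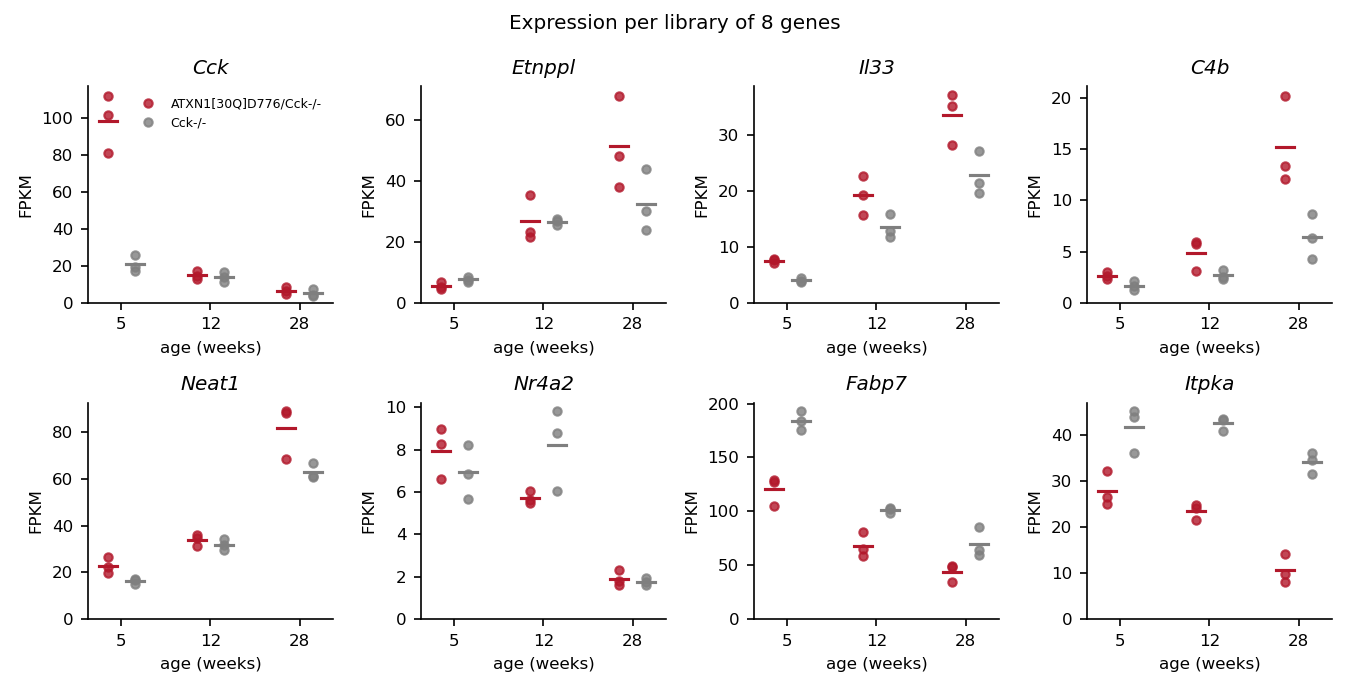
FPKM of 8 genes in each library by age in weeks, with ATXN1[30Q]D776/Cck-/- libraries as red points to the left and Cck-/- libraries as grey points to the right (n = 3 each, short lines are means). Cck starts at 81.0 to 112 FPKM in transgenic libraries of week 5, and Etnppl, Il33, C4b and Neat1 are highest at week 28 in both genotypes.

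Purkinje cell genes fell together, and they fell late. Of 30 Purkinje cell identity genes tested, 26 were lower at transgenic week 28 than at week 5 and none was higher (limma, nor at an unadjusted p under 0.05), with a median log2 change of -0.81, against -0.0052 over all genes. Between week 5 and week 12 limma called none of the 30, 1 had an unadjusted p under 0.05, and the median change was -0.055, and between week 12 and week 28 the median was -0.72 with 23 called lower. Their mean level was 5.48 ± 0.32 in the oldest libraries, 6.10 ± 0.099 at week 12 and 6.15 ± 0.10 at week 5 (mean log2(FPKM + 1) ± SD, n = 3 each). Of the members not called, Stmn4, Aldoc, Plcb3 and Foxp2 had changes of -0.13, -0.17, 0.12 and 0.16. Aldoc was called at -0.29 without replicate 3 of week 28. In bulk tissue fewer Purkinje cells and less RNA of these genes per cell cannot be told apart. Without the libraries holding both Xist and Ddx3y, 17 of the 30 were called lower.

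Single Purkinje cell genes fell by about 1 log2. Pcp2, a regulator of G protein signalling named for this cell, had the values given above and a log2 change -1.06 ± 0.18 SE, limma adjusted p = 0.000561. Calb1, the calcium buffer calbindin, was at 131, 104 and 205 FPKM at week 28, against 314, 253 and 268 FPKM at week 5 (log2 change -0.97 ± 0.16 SE, limma adjusted p = 0.000469). Rgs8, which shortens G protein signals, was at 84.5, 58.3 and 114 FPKM at week 28, against 223, 186 and 198 FPKM at week 5 (log2 change -1.28 ± 0.17 SE, limma adjusted p = 7.77e-05). In each case the groups did not overlap, and week 28 replicate 3 stood highest of its group, which held also for Itpka, Icmt and Cacna1g. Itpka, the kinase that phosphorylates inositol trisphosphate, was at 9.88, 8.05 and 14.1 FPKM at week 28, against 32.3, 25.03 and 26.7 FPKM at week 5 (log2 change -1.34 ± 0.14 SE, limma adjusted p = 2.02e-05). Cacna1g, a T-type calcium channel gene, was at 20.0, 15.4 and 28.9 FPKM at week 28, against 46.6, 45.4 and 41.4 FPKM at week 5 (log2 change -1.06 ± 0.14 SE, limma adjusted p = 8.93e-05).

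Another list held 6 genes first reported as lower in Purkinje cells of SCA1 mice, and 5 of them fell. The median change of all 6 was -0.88. Icmt, the methyltransferase that finishes prenylated proteins, was at 36.8, 32.5 and 49.2 FPKM at week 28, against 92.3, 79.4 and 74.0 FPKM at week 5 (log2 change -1.05 ± 0.13 SE, limma adjusted p = 4.31e-05). The ages did not overlap. Itpr1, Inpp5a and Slc1a6, which encode the inositol trisphosphate receptor, a phosphatase of inositol trisphosphate and the glutamate transporter EAAT4, changed by -1.09, -0.77 and -0.86 with limma adjusted p-values of 0.000566, 0.000302 and 0.000391. Atp2a2, the calcium pump of the endoplasmic reticulum, did not pass at -0.19 (limma adjusted p = 0.0711), but passed at -0.24 without replicate 3 of week 5 and -0.25 without replicate 3 of week 28.

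**Figure D3:**
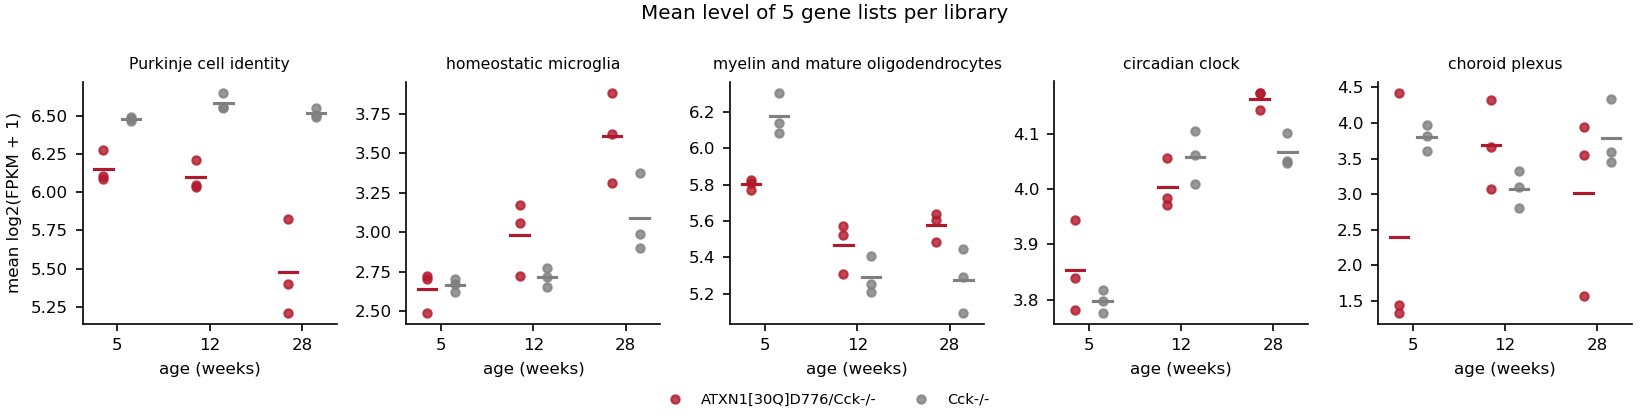
Mean log2(FPKM + 1) of the members of 5 gene lists in each library by age in weeks, transgenic libraries in red to the left and Cck-/- libraries in grey to the right (n = 3 each, short lines are means). The Purkinje cell list of transgenic libraries is near 6.15 and 6.10 at weeks 5 and 12 and at 5.48 at week 28, and choroid plexus genes scatter within the groups.

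The calcium signalling pathway of Purkinje dendrites also fell, in a list that shares members with the Purkinje cell list, with 19 of 31 members lower, 2 higher and a median of -0.44. Atp2a3, another calcium pump of the reticulum, was at 12.0, 10.6 and 13.6 FPKM at week 28, against 40.3, 26.9 and 24.9 FPKM at week 5 (log2 change -1.255 ± 0.16 SE, limma adjusted p = 6.12e-05). Homer3, a scaffold that binds the inositol trisphosphate receptor, was at 44.4, 35.2 and 59.2 FPKM at week 28, against 90.4, 81.0 and 74.95 FPKM at week 5 (log2 change -0.84 ± 0.13 SE, limma adjusted p = 0.000225). Both genes were separated between the ages. Orai2, a store-operated calcium channel gene, changed by -0.58 (limma adjusted p = 0.000176). The 2 members that rose were Gucy1a3, a subunit of the nitric oxide receptor, at 0.30, and Prkca, protein kinase C alpha, at 0.24 (limma adjusted p = 0.00116 and 0.0439). Prkca lost its call when any one of 5 transgenic libraries was left out, all but replicate 1 of week 28, and Gucy1a3 lost it without the libraries low in choroid plexus genes.

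Channels and receptors showed smaller losses. Of 17 potassium channel genes tied to Purkinje cell firing, 10 fell and none rose (median -0.38), and 6 fell without replicate 1 of week 28, 4 without the libraries low in choroid plexus genes but 5 without those with both Xist and Ddx3y. Kcnip1, a subunit that tunes A-type channels, was at 11.5, 10.6 and 16.9 FPKM at week 28, against 26.9, 22.97 and 26.2 FPKM at week 5 (log2 change -0.94 ± 0.12 SE, limma adjusted p = 7.88e-05). Kcnma1, the large calcium-activated channel, was at 15.3, 11.7 and 19.7 FPKM at week 28, against 29.4, 29.3 and 23.9 FPKM at week 5 (log2 change -0.80 ± 0.16 SE, limma adjusted p = 0.00127). The ages did not overlap for either. Glutamate receptor genes fell in 8 of 24 cases and rose in none, with Gria4, an AMPA receptor subunit of Bergmann glia and neurons, at 99.98, 93.4 and 140.1 FPKM at week 28 and 167, 168 and 164 FPKM at week 5 (log2 change -0.60 ± 0.11 SE, limma adjusted p = 0.000928). That count was 5 without replicate 1 of week 5, replicate 1 or 2 of week 28 or the libraries low in choroid plexus genes, but 2 without those with both Xist and Ddx3y, while 1 member rose without replicate 1 of week 5 or without the libraries low in choroid plexus genes. GABA and glycine receptor genes fell in 7 of 17 cases and rose in 1, with 3 lower without the libraries with both Xist and Ddx3y and 2 higher without replicate 3 of week 28. Gabbr2, a subunit of the metabotropic GABA receptor, changed by -0.64, and Gabra3, the member that rose, by 0.59 (limma adjusted p = 0.000167 and 0.000112). Sodium and calcium channel genes fell in 6 of 21 cases, where 19.9% of all genes fell, in 3 without replicate 2 of week 28 and in 2 without the libraries with both Xist and Ddx3y.

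Granule neuron genes were lower with weaker support. Of 18 tested, 7 fell, where 19.9% of all genes fell, and the median change was -0.23. The summed FPKM of the list was 2593 to 2689 at week 28 and 3084 to 3496 at week 5. Slc17a7, the vesicular glutamate transporter VGLUT1, was at 144, 135 and 157 FPKM at week 28, against 238, 214 and 209.9 FPKM at week 5 (log2 change -0.60 ± 0.14 SE, limma adjusted p = 0.00339). Neurod1, a transcription factor of these cells, was at 184, 173 and 179.6 FPKM at week 28, against 277, 251 and 253 FPKM at week 5 (log2 change -0.54 ± 0.11 SE, limma adjusted p = 0.00186). These groups did not overlap, yet no member was called without the libraries low in choroid plexus genes, 2 were without those with both Xist and Ddx3y, and 3 without replicate 1 of week 5. The same list changed by a median of -0.33 in Cck-/- libraries, and no member differed between the genotypes by limma, while at an unadjusted p under 0.05 2 did.

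Of 17 interneuron genes 3 were higher and 1 lower, where 17% of all genes were higher and 19.9% lower. Eomes, which marks unipolar brush cells, was at 2.99, 3.81 and 3.83 FPKM at week 28, against 9.73, 7.70 and 11.01 FPKM at week 5 (log2 change -1.20 ± 0.20 SE, limma adjusted p = 0.000401). The ages did not overlap, and Cck-/- libraries changed by -1.39. Gad1, the enzyme that makes GABA, Kit, a receptor of molecular layer interneurons, and Nxph1, a neurexin ligand, rose by 0.22, 0.30 and 0.44 (limma adjusted p = 0.0312, 0.0260 and 0.0493), and none of these calls held up. Gad1 lost it without replicate 3 of week 28 or any replicate of week 5, Kit without replicate 1 or 3 of either age, and Nxph1 without any one of the 6 libraries.

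Myelin genes fell mainly before week 12. Of 24 genes of myelin and mature oligodendrocytes, 12 were lower and 2 higher at week 28 than at week 5 (median -0.28). At week 12 against week 5, 9 were already lower, in a comparison where 1.19% of all genes were called. Between weeks 12 and 28 none fell by limma, nor at an unadjusted p under 0.05, and 4 rose. Over all genes 10.2% rose and 13.7% fell in that later step. The early count of 9 was 3 without replicate 1 or replicate 3 of week 5 or without the libraries with both Xist and Ddx3y, 4 without replicate 2 of week 5, and 2 without replicate 3 of week 12 or the libraries low in choroid plexus genes. The late count of 4 was 1 without replicate 3 of week 12 or replicate 1 or 2 of week 28, and 0 without the libraries with both Xist and Ddx3y. Ugt8a, which makes the myelin lipid galactosylceramide, was at 59.0, 66.3 and 59.4 FPKM at week 5, 38.4, 36.1 and 32.3 FPKM at week 12 and 35.8, 34.2 and 31.6 FPKM at week 28. Its change of -0.84 ± 0.093 (SE, limma adjusted p = 2.56e-05) was -0.78 by week 12 (limma adjusted p = 0.000442). Mog, a glycoprotein of the myelin surface, was at 81.1, 74.4 and 80.1 FPKM at week 5, 52.6, 59.4 and 47.4 FPKM at week 12 and 50.8, 50.8 and 47.1 FPKM at week 28 (log2 change -0.65 ± 0.11 SE, limma adjusted p = 0.000477). Week 5 was separated from both later ages in these genes. Fa2h, which hydroxylates the fatty acids of myelin lipids, changed by -0.55, and Sirt2, a deacetylase of oligodendrocytes, by -0.27 (limma adjusted p = 6.38e-05 and 0.000121). The 2 members that rose, Myrf and Sox10, are transcription factors of the lineage, at 0.38 and 0.34 (limma adjusted p = 0.00956 and 0.0195). Myrf lost its call without replicate 2 of week 28, and Sox10 without replicate 1 or 2 of week 28 or replicate 3 of week 5. Without the libraries low in choroid plexus genes, 5 of the 24 were called lower.

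In Cck-/- libraries the same myelin genes fell by more, with a median of -0.93. Mbp, the main protein of compact myelin in the cytoplasm, was at 1873, 1983 and 1709 FPKM in transgenic libraries of week 28 and 2381, 2409.9 and 2308 FPKM at week 5, and at 1496, 1414 and 1191 FPKM in Cck-/- libraries of week 28 and 2831, 3259 and 2849.6 FPKM at week 5. The transgenic change minus the Cck-/- change was 0.77 ± 0.14 (SE, limma adjusted p = 0.0127), and it was 0.44 and did not pass after quantile normalization. For Ugt8a this difference was 0.96 ± 0.13 (SE, limma adjusted p = 0.00208) and for Cldn11, which seals the myelin sheath, 1.14 ± 0.19 (SE, limma adjusted p = 0.00704). In the test of this difference 3.65% of all genes were called, and 14 of the 24 myelin genes were, all of them higher in the transgenic change. That count fell to 8 without transgenic replicate 1 of week 28 and to 4 without the libraries with both Xist and Ddx3y. Cholesterol synthesis genes, which supply myelin among other membranes, fell in 12 of 24 cases in transgenic libraries (median -0.23) and changed by a median of -0.55 in Cck-/- libraries. Fdps, an enzyme of the mevalonate pathway, was at 30.0, 28.7 and 29.0 FPKM at week 28, against 42.0, 38.2 and 41.5 FPKM at week 5 (log2 change -0.46 ± 0.054 SE, limma adjusted p = 3.77e-05), without overlap. Only 2 of the 24 were called without the libraries low in choroid plexus genes.

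Microglial genes rose. Of 22 genes of homeostatic microglia 21 were higher at transgenic week 28 than at week 5 and none was lower, with a median of 0.95, and a median of 0.28 was reached by week 12, when limma called none and 11 had an unadjusted p under 0.05. Their summed FPKM was 334 to 515 at week 28 and 154 to 201 at week 5. Ctss, the lysosomal protease cathepsin S, was at 71.4, 89.6 and 57.8 FPKM at week 28, against 19.2, 23.2 and 25.4 FPKM at week 5 (log2 change 1.64 ± 0.18 SE, limma adjusted p = 2.10e-05). Cx3cr1, the fractalkine receptor, chosen after its values were seen, was at 11.5, 14.1 and 9.45 FPKM at week 28, against 4.44, 4.96 and 5.07 FPKM at week 5 (log2 change 1.11 ± 0.15 SE, limma adjusted p = 9.37e-05). Neither gene overlapped between the ages. Laptm5, a lysosomal membrane protein of blood-derived cells, and Aif1, which encodes IBA1, rose by 1.06 and 1.09 (limma adjusted p = 6.92e-05 and 8.03e-05). The member not called was Fcrls, which passed at 1.29 without replicate 3 of week 28, at 4.98, 4.20 and 0.679 FPKM at week 28 and 1.09, 1.45 and 1.30 FPKM at week 5. Of 8 blood genes limma called none, nor had any an unadjusted p under 0.05, with changes from -2.47 to 2.81 and a median of -0.41, and 1 was called higher with library weights. Their summed FPKM was 223 to 347 at week 28 and 315 to 433 at week 5.

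Genes of activated microglia rose in 14 of 16 cases and fell in none (median 0.59). Clec7a, the receptor dectin-1, was at 2.01, 2.98 and 1.70 FPKM at week 28, against 0.315, 0.513 and 0.427 FPKM at week 5 (log2 change 1.17 ± 0.13 SE, limma adjusted p = 2.85e-05). Cd68, a lysosomal protein of phagocytes, was at 8.997, 10.9 and 7.63 FPKM at week 28, against 2.59, 3.44 and 3.59 FPKM at week 5 (log2 change 1.27 ± 0.20 SE, limma adjusted p = 0.000261). Both were separated between the ages, though Clec7a is scarce and reached the 1 FPKM of the filter on low values in no library of week 5. Cd52 and Cd84, surface proteins of immune cells, rose by 1.28 and 0.71 (limma adjusted p = 0.000131 and 0.000242). The members not called were Spp1, the secreted protein osteopontin, at -0.13 and Ccl6, a chemokine, at 0.21. The count was 8 without replicate 1 of week 5, 9 without replicate 1 or 2 of week 28, 7 without the libraries low in choroid plexus genes but 6 without those with both Xist and Ddx3y. In Cck-/- libraries the median change was 0.47 for homeostatic and 0.22 for activated microglial genes. Olfml3, a secreted matrix protein of the homeostatic list, changed by 1.46 in transgenic and 0.15 in Cck-/- libraries, a difference of 1.31 ± 0.28 (SE, limma adjusted p = 0.0244). For Clec7a the difference was 0.91 ± 0.18 (SE, limma adjusted p = 0.0217). The Olfml3 call was lost without replicate 1 or 2 of transgenic week 28, replicate 2 of Cck-/- week 28 or replicate 1 or 3 of Cck-/- week 5, and the Clec7a call without replicate 2 of Cck-/- week 28 or replicate 3 of Cck-/- week 5. No other member of either list passed this test, while 15 of the 22 and 6 of the 16 had an unadjusted p under 0.05. The 1 call of each list was 18 homeostatic and 10 activated genes with library weights, 5 and 2 without replicate 1 of Cck-/- week 28 and 4 and 3 without replicate 3 of transgenic week 28, and it was 2 for activated genes with no filter on low values.

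Class I antigen presentation genes rose, 3 of them by week 12. Of 13 tested, 11 were higher at week 28 than at week 5 (median 0.98), 3 were so at week 12, and between weeks 12 and 28 limma called none while 4 had an unadjusted p under 0.05. The 3 early calls were 1 without replicate 1 or 3 of week 5, and none without replicate 2 of week 5, replicate 2 of week 12 or either set of doubted libraries, those low in choroid plexus genes and those with both Xist and Ddx3y. B2m, the light chain of class I molecules, was at 85.2, 93.4 and 102 FPKM at week 5, 158, 191 and 124 FPKM at week 12 and 195, 244 and 175 FPKM at week 28 (log2 change 1.11 ± 0.16 SE, limma adjusted p = 0.000137). H2-K1, a classical heavy chain, was at 11.8, 10.7 and 12.7 FPKM at week 5, 23.2, 34.6 and 18.1 FPKM at week 12 and 30.6, 43.5 and 23.8 FPKM at week 28 (log2 change 1.36 ± 0.22 SE, limma adjusted p = 0.000370). Week 5 lay below both later ages in these genes. H2-T23, a non-classical heavy chain, changed by 1.23, of which 0.98 by week 12 (limma adjusted p = 0.000205 and 0.0180). H2 genes are similar in sequence, so reads may be split between them. H2-D1, another classical heavy chain, was at 62.8, 77.1 and 65.7 FPKM at week 28 and 57.4, 69.3 and 70.6 FPKM at week 5 and did not pass, as did not Psmb10, a subunit of the immunoproteasome (0.18). The list changed by a median of 0.71 in Cck-/- libraries and no member differed between genotypes by limma, with 1 at an unadjusted p under 0.05.

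Interferon response genes rose in 9 of 14 cases, where 17% of all genes rose, and the median change was 0.64. Ifit2, which binds foreign RNA, was at 3.10, 3.67 and 2.51 FPKM at week 28, against 1.45, 1.53 and 1.45 FPKM at week 5 (log2 change 0.71 ± 0.15 SE, limma adjusted p = 0.00236). Bst2, the tetherin of enveloped viruses, was at 8.55, 12.9 and 6.04 FPKM at week 28, against 2.83, 4.42 and 5.47 FPKM at week 5 (log2 change 0.93 ± 0.25 SE, limma adjusted p = 0.0104). The groups did not overlap, but Bst2 lost its call without replicate 2 of week 28 or replicate 1 of week 5. The count of 9 was 1 without replicate 2 of week 28, 4 without replicate 1 or replicate 2 of week 5, and 2 without either set of doubted libraries, those low in choroid plexus genes or those with both Xist and Ddx3y.

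Astrocyte genes changed in both directions. Of 22 genes of Bergmann glia and astrocytes 8 rose and 9 fell, where 17% of all genes rose and 19.9% fell. Fabp7, a fatty acid binding protein of radial and Bergmann glia, was at 48.5, 34.1 and 49.7 FPKM at week 28, against 127, 129 and 105 FPKM at week 5 (log2 change -1.45 ± 0.15 SE, limma adjusted p = 1.59e-05). Slc1a3, the glutamate transporter GLAST that Bergmann glia wrap around Purkinje synapses, was at 196, 180.2 and 275 FPKM at week 28, against 397, 322 and 337 FPKM at week 5 (log2 change -0.71 ± 0.12 SE, limma adjusted p = 0.000592). Aqp4, the water channel of astrocyte endfeet, was at 235, 257 and 173 FPKM at week 28, against 121, 138 and 128 FPKM at week 5 (log2 change 0.76 ± 0.13 SE, limma adjusted p = 0.000604). None of the 3 overlapped between the ages. The 8 that rose became 5 without replicate 1 or 3 of week 5 or replicate 1 of week 28, and 4 without replicate 2 of week 28 or without either doubted set. Of 15 reactive astrocyte genes 10 rose and none fell by limma, with a median of 0.56. Of the 5 not called, 1 was lower at an unadjusted p under 0.05. Library weights called 1 lower, and 6 rose where a mean FPKM of at least 5 was asked, which leaves fewer members tested. Gfap, the intermediate filament of astrocytes, was at 277, 324 and 180.5 FPKM at week 28, against 63.0, 95.1 and 121 FPKM at week 5 (log2 change 1.48 ± 0.30 SE, limma adjusted p = 0.00156), without overlap. C3, complement component 3, was at 2.27, 2.23 and 1.27 FPKM at week 28, against 0.155, 0.389 and 0.359 FPKM at week 5 (log2 change 1.15 ± 0.17 SE, limma adjusted p = 0.000174). No library of week 5 reached 1 FPKM of C3, and the 3 of week 28 alone meet the filter on low values. Cd44, a receptor for hyaluronan, rose by 1.04 (limma adjusted p = 0.000695).

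Most genes of the circadian clock rose. The molecular clock runs on the activators encoded by Arntl and Clock, which bind the E-box CACGTG and switch on their own repressors and the output factors Dbp, Tef and Hlf. Of 18 clock genes 13 were higher and 4 lower at transgenic week 28 than at week 5, with a median of 0.42, and only Npas2 was not called. Neither set of doubted libraries nor any single library moved the 13 by over 1.5 times, while the 4 were 2 without the libraries low in choroid plexus genes. The labels give no hour of dissection, so an age difference in these genes and a difference in the hour cannot be told apart. Promoters follow for clock genes that rose and hold the E-box, and for Cck, the gene that fell the most, as RefSeq windows of GRCm38.p6 that run 5′ to 3′ from 250 bases before to 50 bases after the annotated start, with CACGTG in capitals.
Bhlhe41, chr6:145865371-145865670, minus strand: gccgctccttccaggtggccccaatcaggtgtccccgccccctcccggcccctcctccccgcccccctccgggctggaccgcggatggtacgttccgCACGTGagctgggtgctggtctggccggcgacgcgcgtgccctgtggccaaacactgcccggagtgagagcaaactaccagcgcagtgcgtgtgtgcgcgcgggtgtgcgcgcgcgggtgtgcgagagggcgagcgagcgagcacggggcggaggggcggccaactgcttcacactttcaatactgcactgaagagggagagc
Ciart, chr3:95882179-95882478, minus strand: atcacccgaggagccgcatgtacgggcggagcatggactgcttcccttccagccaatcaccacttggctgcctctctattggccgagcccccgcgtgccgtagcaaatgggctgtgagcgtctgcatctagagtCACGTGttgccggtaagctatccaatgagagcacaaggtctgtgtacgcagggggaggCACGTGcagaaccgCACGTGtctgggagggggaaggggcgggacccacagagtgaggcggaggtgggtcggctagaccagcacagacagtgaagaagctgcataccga
Tef, chr15:81802423-81802722, plus strand: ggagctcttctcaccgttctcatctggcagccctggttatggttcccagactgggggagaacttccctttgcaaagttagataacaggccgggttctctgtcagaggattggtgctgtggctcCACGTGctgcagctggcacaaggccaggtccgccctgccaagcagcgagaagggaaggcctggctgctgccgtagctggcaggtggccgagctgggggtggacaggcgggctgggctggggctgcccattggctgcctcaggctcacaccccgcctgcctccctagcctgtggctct
Cck, chr9:121495645-121495944, minus strand: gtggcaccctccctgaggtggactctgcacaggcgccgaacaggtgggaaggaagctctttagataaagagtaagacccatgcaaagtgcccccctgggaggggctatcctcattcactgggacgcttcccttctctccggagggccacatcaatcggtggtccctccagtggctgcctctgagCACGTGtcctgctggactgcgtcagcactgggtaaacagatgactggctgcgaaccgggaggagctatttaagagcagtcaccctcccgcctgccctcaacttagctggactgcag

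Ciart carries the hexamer 3 times in its window and the other promoters shown carry it 1 time. The hexamer is its own reverse complement, so both strands give the same matches. It occurred in 5 of the 15 clock genes with a window (Bhlhe41, Ciart, Cry1, Per1 and Tef), in 11.7% of the 10117 tested genes with one and in 7.15% of all 32851 windows. A match is a run of letters and not a measured binding site. Bhlhe41, a repressor of the clock, was at 7.77, 7.77 and 7.56 FPKM at week 5, 11.6, 10.04 and 9.79 FPKM at week 12 and 14.1, 14.2 and 14.3 FPKM at week 28 (log2 change 0.80 ± 0.062 SE, limma adjusted p = 8.18e-07). The ages did not overlap, and the step by week 12 was called by limma at 0.40 (adjusted p = 0.00608), a call lost without either set of doubted libraries. Ciart, another repressor, was at 9.06, 8.49 and 8.98 FPKM at week 28, against 4.32, 4.12 and 4.42 FPKM at week 5 (log2 change 0.90 ± 0.082 SE, limma adjusted p = 4.86e-06). Hlf and Tef, output factors, rose by 0.51 and 0.44 (limma adjusted p = 6.12e-05 and 0.000194). Arntl, the activator, was at 14.98, 12.7 and 15.1 FPKM at week 28, against 20.8, 20.6 and 19.3 FPKM at week 5 (log2 change -0.48 ± 0.062 SE, limma adjusted p = 7.16e-05), again without overlap. The other members that fell were Clock, Per1 and Cry1, at -0.17, -0.53 and -0.26 (limma adjusted p = 0.00409, 0.00323 and 0.0192), of which Cry1 lost its call without replicate 1 of week 5 or replicate 1 of week 28. In Cck-/- libraries the median change of the list was 0.39, with 0.63 for Bhlhe41, 0.59 for Ciart and -0.47 for Arntl.

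Immediate early genes, which neurons switch on within minutes of activity, fell in 6 of 15 cases and rose in 1. Over all genes 19.9% fell and 17% rose. Nr4a2, an orphan nuclear receptor, was at 1.78, 2.31 and 1.63 FPKM at week 28, against 8.99, 6.60 and 8.29 FPKM at week 5 (log2 change -1.62 ± 0.15 SE, limma adjusted p = 5.82e-06). Fosl2, an AP-1 subunit, was at 1.41, 2.06 and 1.69 FPKM at week 28, against 5.14, 4.58 and 4.54 FPKM at week 5 (log2 change -1.09 ± 0.11 SE, limma adjusted p = 1.29e-05). Neither overlapped, and the Cck-/- change was -1.51 and -1.26. Nr4a3 and Egr4, also transcription factors, fell by more than 1 log2, with changes of -1.96 and -1.08 (limma adjusted p = 2.67e-05 and 0.000170), and Nr4a1 changed by -0.98. Fos changed by -1.12 (limma adjusted p = 0.0473) and lost its call without any one of the 6 libraries. The member that rose was Arc, a regulator of synaptic receptors, at 0.35 (limma adjusted p = 0.0187), which lost its call without replicate 1 of week 5 or replicate 1 or 2 of week 28. The labels give no hour of dissection, so it and age cannot be told apart for these genes either.

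Genes of oxidative phosphorylation fell in 22 of 35 cases and rose in 1, by small amounts (median -0.20). Over all genes 19.9% fell and 17% rose, shares that apply to the heat-shock list below too. Cox7c, a subunit of cytochrome c oxidase, was at 381, 367 and 427 FPKM at week 28, against 612, 669.6 and 648 FPKM at week 5 (log2 change -0.72 ± 0.072 SE, limma adjusted p = 1.17e-05). Ndufa1, of complex I, was at 147, 139 and 153 FPKM at week 28, against 203, 213 and 221 FPKM at week 5 (log2 change -0.53 ± 0.073 SE, limma adjusted p = 0.000105). Both were separated between the ages, as were Cyc1 and Cycs, the cytochromes c1 and c, at -0.33 and -0.40. The count was 14 without replicate 3 of week 5 and 11 after quantile normalization, and the median in Cck-/- libraries was -0.15. Heat-shock chaperone genes fell in 7 of 16 cases and rose in none by limma (1 at an unadjusted p under 0.05, and 1 called without replicate 3 of week 5 or of week 28), with Hsph1, of the Hsp110 family, at 26.6, 29.6 and 29.5 FPKM at week 28 and 39.9, 43.2 and 43.9 FPKM at week 5 (log2 change -0.55 ± 0.051 SE, limma adjusted p = 5.67e-06). Hsp90aa1, the inducible Hsp90, changed by -0.25 (limma adjusted p = 0.00227).

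Other lists had calls in both directions. Genes of the mTORC1 pathway fell in 11 of 39 cases and rose in 5, genes of the unfolded protein and integrated stress response fell in 5 of 20 and rose in 4, and the BCL2 family fell in 5 of 14 and rose in 2. Leaving out any 1 of the 6 libraries moved a count of the stress response list by over 1.5 times, to between 0 and 4 higher and 0 and 5 lower, and 1 member was called without the libraries with both Xist and Ddx3y, none without those low in choroid plexus genes. The 5 of the BCL2 family were 3 without replicate 2 of week 28 or without the libraries with both Xist and Ddx3y, and the 2 were 1 without either doubted set. Cytosolic ribosomal protein genes rose in 7 of 32 cases, in 3 without replicate 1 of week 5 or replicate 2 of week 28, in 4 without replicate 2 of week 5, in 1 without the libraries with both Xist and Ddx3y and in none without those low in choroid plexus genes. In that list 1 member fell, Rpl18, at -0.27 (limma adjusted p = 0.00517), a call lost under some alternatives. The 11 of the mTORC1 list were 7 without the libraries with both Xist and Ddx3y, and the 5 were 3 without these or without replicate 2 of week 28, and 2 without those low in choroid plexus genes. Those shares stand beside 19.9% lower and 17% higher over all genes.

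Neuropeptide and granin genes rose in 4 of 22 cases and fell in 4, among them Cck and Scg5, where 17% of all genes rose and 19.9% fell. Among the 4 that rose, Nppb passed the filter on low values through the 3 libraries of week 28 alone. The 4 that fell were 2 without replicate 2 of week 5, replicate 1 of week 28 or either doubted set, and the 4 that rose were 2 without the libraries with both Xist and Ddx3y. By limma no gene differed among 15 of choroid plexus and 8 of pericytes and smooth muscle, nor did any at an unadjusted p under 0.05, 1 of 12 endothelial genes fell, and 2 of 13 meningeal genes rose. The choroid plexus list had a median change of 0.60, and 9 of the 15 were called higher without replicate 3 of week 5. The 2 meningeal calls were 5 with library weights, 1 without replicate 1 or 2 of either age and none without the libraries with both Xist and Ddx3y. The endothelial call was 2 without replicate 2 of either age, and 3 without the libraries low in choroid plexus genes, where 1 meningeal gene was called.

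Early and late change were then set side by side, with week 12 as the divide. Week 12 against week 5 gave 161 calls, 80 higher (0.593%) and 81 lower (0.601%), and week 28 against week 12 gave 3216 (23.8%), 1370 higher (10.2%) and 1846 lower (13.7%). These comparisons share the week 12 libraries, and each shares an age with the comparison of week 28 and week 5. The early count was 68 to 127 when single libraries were left out, at 68 without replicate 2, 76 without replicate 3 of week 12, 85 without replicate 1 and 102 without replicate 3 of week 5. The late count was 1756 and 1773 without replicates 2 and 1 of week 28 and 1951 and 1992 without replicates 2 and 3 of week 12. Among gene lists, myelin and class I antigen presentation changed by medians of -0.25 and 0.59 before week 12 and 0.085 and 0.33 after it. Purkinje cell identity and homeostatic microglia changed by -0.055 and 0.28 before and -0.72 and 0.63 after. Among single genes with most of their change before week 12 were Tuba1c, Ugt8a, Clmp and H2-T23, described above, and Nxpe4, a gene of no certain role, at 1.255, 2.13 and 1.2497 FPKM at week 5, 4.40, 3.20 and 3.32 FPKM at week 12 and 4.90, 3.86 and 3.41 FPKM at week 28. Its change of 0.9985 was 0.88 by week 12 (limma adjusted p = 0.000171 and 0.00806).

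Among the genes that moved after week 12 were Srsf4, Nr4a3, Nox1 and Adamts13, which shifted in both genotypes. Nox1, which encodes a superoxide-producing oxidase, was at 4.18, 3.74 and 3.78 FPKM at transgenic week 28 and at 0.0302 FPKM or below in all 12 younger libraries of both genotypes. Nox1 and Adamts13 passed the filter on low values through libraries of week 28 alone, so their separation is in part set by the filter. Lars2, the mitochondrial leucyl-tRNA synthetase whose reads can mix with ribosomal RNA, was at 44.0, 46.5 and 67.8 FPKM at week 28, against 130.4, 156 and 149 FPKM at week 5 (log2 change -1.47 ± 0.24 SE, limma adjusted p = 0.000399). The ribosomal RNA entry Rn45s was at 250, 238 and 346 FPKM at week 28 and 677, 1017 and 1004 FPKM at week 5. Whether the change of Lars2 comes from such reads was not tested. Ramp3, which modifies receptors of the calcitonin family, was at 6.50, 5.59 and 14.3 FPKM at week 28, against 24.4, 18.4 and 24.6 FPKM at week 5 (log2 change -1.35 ± 0.25 SE, limma adjusted p = 0.00103). The ages did not overlap for any of these genes. Fam163b and Cpne6, which encodes a calcium-dependent membrane binding protein, rose by 1.80 and 1.77 (limma adjusted p = 0.000165 and 0.00235). The differences between genotypes for Lars2, Ramp3, Fam163b and Cpne6 were -0.28, 0.094, 0.17 and 1.18. None passed (limma adjusted p = 0.705, 0.921, 0.848 and 0.239 in that order). In Cck-/- libraries Lars2 was at 80.7, 56.0 and 46.5 FPKM at week 28 and 188, 134 and 101 FPKM at week 5.

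**Figure D4:**
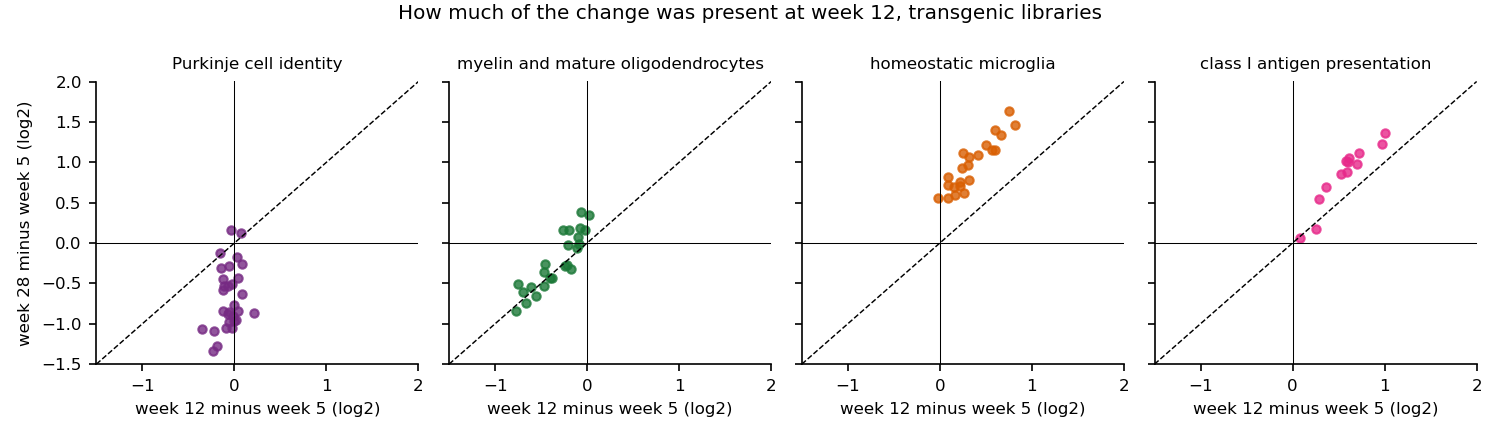
Each point is a gene of the list named above the panel, in transgenic libraries, with its change from week 5 to 12 across and from week 5 to 28 upwards (both log2, and both measured from the same week 5 libraries). Points on the dashed line had their whole change by week 12. Of 30 Purkinje cell genes 28 lie below the horizontal axis, near an early change of 0 (list medians -0.81 and -0.055), and myelin genes lie along the line.

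Whether the transgene altered the course was asked by the difference of the 2 changes from week 5 to 28, transgenic minus Cck-/-. It was called for 492 genes (3.65%), 233 with a positive (1.73%) and 259 with a negative (1.92%) difference. That count was 120, 139 and 1058 without replicates 1, 2 and 3 of transgenic week 28, and 249, 235 and 272 without those of transgenic week 5. It was 132 and 258 without replicates 2 and 3 of Cck-/- week 28, 189, 192 and 131 without replicates 1, 2 and 3 of Cck-/- week 5, and 65 without the libraries with both Xist and Ddx3y. Of 30 Purkinje cell genes 16 were called, all 16 lower in the transgenic change, with a median difference of -0.76. Itpr1 was at 133, 97.7 and 207 FPKM at transgenic week 28 and 314, 303 and 278 FPKM at week 5, and at 441, 372 and 359 FPKM at Cck-/- week 28 and 273, 302 and 304 FPKM at week 5. Its change was -1.09 in transgenic and 0.41 in Cck-/- libraries, a difference of -1.501 ± 0.27 (SE, limma adjusted p = 0.0106). Rgs8, Itpka and Icmt differed by -1.23, -1.06 and -1.05 (limma adjusted p = 0.0165, 0.0161 and 0.00835). Transgenic libraries started below Cck-/- libraries for Icmt and Itpka and overlapped them for Itpr1 at week 5. For Pcp2 the difference was -0.9958 ± 0.26 (SE, limma adjusted p = 0.0454), a call lost when any one of the 12 libraries of these ages but transgenic replicate 3 of week 28 was left out.

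The number of Purkinje cell genes that differ depends on single libraries. Of the 30 Purkinje cell genes 4 were called without replicate 1 of transgenic week 28 or replicate 2 of Cck-/- week 28, 5 without replicate 1 of transgenic week 5 or replicate 2 or 3 of Cck-/- week 5, 6 without replicate 1 of Cck-/- week 5, 7 without replicate 2 of transgenic week 28, 8 without replicate 3 of Cck-/- week 28 and 10 without replicate 2 of transgenic week 5. None was called without the libraries with both Xist and Ddx3y, and 27 were with weights for the quality of each library. Outside the Purkinje cell list, Aqp4 changed by 0.76 in transgenic and -0.26 in Cck-/- libraries, a difference of 1.02 ± 0.19 (SE, limma adjusted p = 0.0127). Gfap was at 134, 83.1 and 69.5 FPKM at Cck-/- week 28 and 90.2, 77.5 and 87.4 FPKM at week 5, where its difference from the transgenic change, 1.37 ± 0.42 (SE, limma adjusted p = 0.0853), did not pass but passed at 1.61 without transgenic replicate 3 and at 1.64 without Cck-/- replicate 1 of week 28. Nxpe4 and Scg5 differed by 1.29 and -1.15, and Il22, a cytokine gene with a near-identical copy in some mouse strains, by -1.15 (limma adjusted p = 0.00547, 0.000211 and 0.0177). At week 5 the Cck-/- libraries held 127, 128 and 118 FPKM of Scg5 and 4.04, 4.26 and 3.92 FPKM of Nxpe4, so for these genes the genotypes already differed at week 5. Without the libraries with both Xist and Ddx3y the differences of Cck, Tuba1c, Ugt8a and Scg5 still passed, and those of Itpr1, Rgs8, Itpka, Icmt, Aqp4, Mbp, Cldn11, Nxpe4, Il22, Clec7a, Olfml3 and Pcp2 did not.

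**Figure D5:**
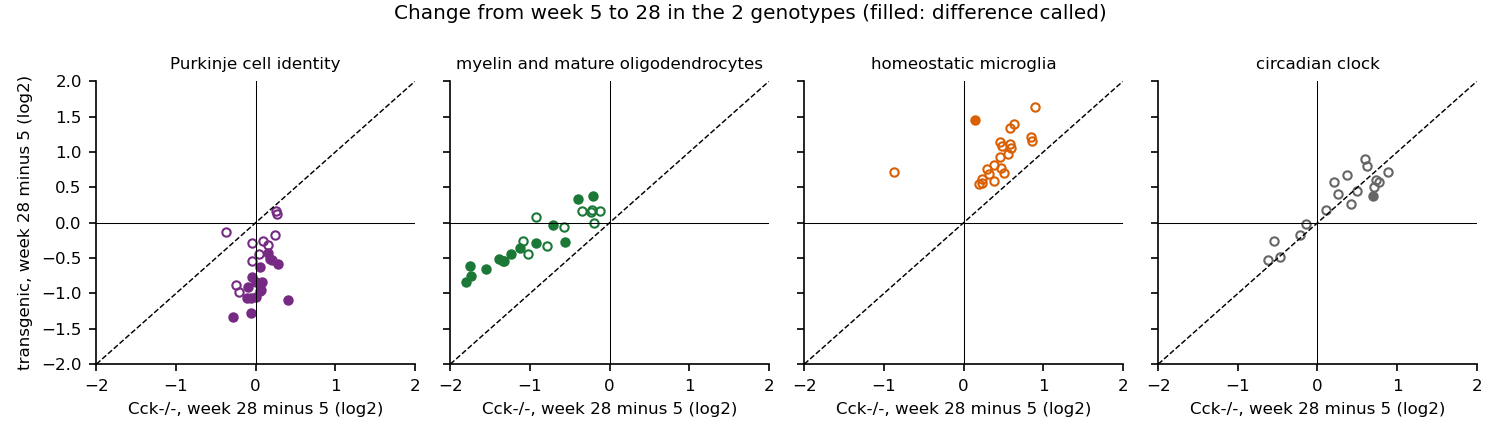
Each point is a gene of the list named above the panel, with its change from week 5 to 28 in Cck-/- libraries across and in transgenic libraries upwards (log2). Filled points differed between the genotypes (limma, adjusted p under 0.05), and the dashed line marks equal change. Of the Purkinje cell genes 16 are filled and lie below the line, of the myelin genes 14 lie above it, and 1 homeostatic microglia gene and 1 clock gene are filled.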

How the data were processed

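RNA of dissected FVB cerebella was isolated by TRIzol, cleaned on RNeasy columns and made into Illumina TruSeq libraries, per the labels' protocols. Reads were aligned with TopHat2 2.0.11 and quantified with Cufflinks 2.2.1 on mm10, per the submitters' processing notes. The deposited values are FPKM per gene symbol, normalized over the 18 libraries by the authors with Cuffnorm, as the deposited table is named. Read filters, strand handling and annotation were not given in the sources used here, so antisense and near-identical genes cannot be told apart from their partners. The values used here are not counts, so depth is unknown and no counting interval is given.

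The deposited values were taken as log2(FPKM + 1), and 13487 genes with at least 1 FPKM in at least 3 libraries entered the limma fit (version 3.58.1, R 4.3.3). A mean was fitted for each of the 6 groups of 3 with a mean-variance trend, which left 12 residual degrees of freedom. P-values are two-sided, adjusted by Benjamini and Hochberg over all genes tested and called under 0.05. A fold on this scale understates the change of genes near 1 FPKM. In simulated data with independent noise the fit recovered most known changes of 1 log2. That simulation held no batch or tissue difference between libraries, so it does not test the calls made here. Members and the 41 gene lists (728 genes, 660 tested) were chosen with earlier results of these data known. Named genes came from a rule: among called genes without overlap, averaging at least 2 FPKM in the higher group, the 15 largest changes in each direction, the 10 largest differences between genotypes in each direction, and 5 in each direction with most of their change before or after week 12, as well as up to 4 members per list, those of smallest p. Added to these were Gfap, Pcp2, Ttr, Xist, Atxn1, Cck and its receptors Cckar and Cckbr. Not all of these are described. Aldoc, Arc, Atp2a2, Calb1, Ccl6, Clock, Cry1, Cx3cr1, Fcrls, Fos, Foxp2, Gucy1a3, H2-D1, Mbp, Myrf, Nr4a1, Per1, Plcb3, Prkca, Psmb10, Rn45s, Sox10, Spp1, Stmn4 and Tef lay outside it and were chosen after their values were seen. Alternatives covered the pseudocount, filter, scaling, variance model, library weights, covariates and libraries left out. Promoters are from RefSeq on GRCm38.p6.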

Additional observations from a re-analysis of the deposited data

Results flagged for a closer look

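The change from week 5 to week 28 differed between genotypes for 492 genes by limma. Each value below is the transgenic change minus the Cck-/- change in log2, from 3 libraries a group, that passed an adjusted p under 0.05 in this test of the difference itself. Among Purkinje cell genes it was -1.501 for Itpr1, -1.23 for Rgs8, -1.06 for Itpka, -1.05 for Icmt and -0.9958 for Pcp2. It was 1.14 for Cldn11, 0.96 for Ugt8a and 0.77 for Mbp, which belong to myelin, and 1.02 for Aqp4 of astrocytes. Microglial genes gave 1.31 for Olfml3 and 0.91 for Clec7a. Tuba1c gave -2.94, Cck -1.83, Scg5 -1.15 and Nxpe4 1.29, genes that already differed between the genotypes at week 5, and Il22 gave -1.15. The Purkinje cell and myelin lists did not overlap between the genotypes at week 5 either. Mean log2 levels of the Purkinje cell list were 6.09 to 6.27 in transgenic and 6.47 to 6.49 in Cck-/- libraries. For the myelin list they were 5.77 to 5.83 and 6.08 to 6.31 in that order. Single libraries moved the 492 between 120 and 1058. The week 28 libraries of both genotypes stood apart from the younger ones, and the part of this in the 492 differences was not tested.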

How the results depend on the processing

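The 4979 calls of week 28 against week 5 were 3557 to 5030 when 1 library was left out, 2587 without the 3 libraries low in choroid plexus genes, and then 2691 without those with both Xist and Ddx3y, a choice made after seeing the data. With only the groups compared, so that their spread alone was used, the 4979 were 4322. The 161 early calls (week 12 against week 5) were 68 to 127 with 1 library left out, 61 with the choroid plexus level as a covariate, 46 and 44 without those sets and 28 with only the groups compared. The 3216 late calls (week 28 against week 12) were 1756 to 3546 with 1 library left out, 5128 with library weights, 984 without the libraries with both Xist and Ddx3y and 1368 with only the groups compared. The 492 differences between genotypes were 120 to 1058 with 1 library left out, 4325 with library weights, 65 without the libraries with both Xist and Ddx3y and 189 with only the groups compared. Replicate numbers did not pair the samples (correlations of deviations -0.30, -0.09 and -0.37), and a replicate block gave 4964, 141, 3202 and 520 calls. Of the calls of week 28 against week 5, 46.2% were higher, and 36.8% were with genes of a mean FPKM of at least 5, and of the differences between genotypes 47.4% had a positive sign, and 37.1% did without the libraries low in choroid plexus genes, 60% without those with both Xist and Ddx3y, 39.1% to 60.4% with 1 library left out and 59.8% with only the groups compared. The cause of these shifts was not tested. FPKM without counts gives no depth, so values near 1 FPKM carry an unknown counting error. Among genes that did not pass, the sign of the change turned under some settings. Dropping the low choroid plexus libraries gave 0.13 for Atxn1, -0.020 for Ccl6 and for H2-D1, 0.091 for Npas2 and -0.080 for Plcb3, and 0.21 for the difference between genotypes of Neat1. Library weights gave -0.059 for Foxp2, -0.019 for H2-D1 and 0.014 for Npas2. For Atxn1 the choroid plexus covariate gave 0.0025 and leaving out libraries with both Xist and Ddx3y 0.061. With 1 library left out the range was -0.093 to 0.031 for Atxn1, -0.038 to 0.33 for Foxp2, -0.035 to 0.12 for H2-D1, -0.082 to 0.030 for Npas2, -0.37 to 0.095 for Spp1 and -0.20 to 0.016 for that difference of Neat1.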
